A study of Drosophila melanogaster with 2 samples.

Results

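The genes described here are 10 Drosophila genes for transcription factors and chromatin proteins with a BTB domain: lola, ttk, psq, chinmo, ab, bab1, bab2, ken, Trl and mod(mdg4). They were taken by name from the Ensembl BDGP6 annotation, and all 10 of them were found among its 13945 protein-coding genes on the 6 main chromosome arms. The data are sites on chromatin where CG15710, a protein known by its annotation number, was recovered by ChIP-seq. The flies were transgenic for CG15710 fused to GFP at its C-terminus, and the chromatin of whole pupae aged 24 hours, of both sexes together, was precipitated with an antibody to GFP. The 2 biological replicates carry the numbers 1 and 3 and form 1 group, and there was no other group of animals to set beside it. Per the text deposited with the files, the replicate and pooled peak lists were each made with 1 further input that it does not describe, so what the signal was measured against is not known, and no control is analysed here. Whole animals mix all tissues, so a peak does not tell in which cells the protein was bound.

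The BTB domain is a protein-protein contact surface, usually at the start of the protein, through which these factors pair with themselves and with each other and recruit cofactors. In most members it is joined to zinc fingers or another DNA-binding domain. Members of the family are known for choosing cell fates in the nervous system, limbs and ovary, and for organising chromatin at Polycomb sites and insulators. Several of their genes are long and carry alternative start sites and many spliced isoforms.

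The authors deposited 4 peak lists on genome build dm6. Replicate 1, replicate 3 and the pool of both have 30000 peaks each, and a list that passed the irreproducible discovery rate (IDR) step has 8483. The IDR list held exactly the 8483 pooled peaks of highest signal, with a lowest signal of 159.0, a median of 329.4 and a highest of 9376. Signal is the authors' own value for a peak of unstated scale, so it is compared only within a list, and rank 1 is the strongest peak of a list. The lists give no read counts, and the sequencing depth is unknown. No peak of any list overlapped the gene of CG15710 itself.

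All 10 genes had IDR peaks, and these lay mostly in introns, at about the share found in long genes generally. A peak was given to a gene when its summit lay inside the gene or within 2 kb of it. There were 60 such IDR peaks, 0.707% of the list, at 0.138 per kb of these genes and margins beside 0.0634 per kb of the genome. The density was uneven. It was 0.052 per kb at chinmo, of 53.4 kb, which is below the genome level. The median over protein-coding genes of 30 kb or more, counted with the same margins, was lower still, at 0.0434. The density was 0.074 at ab and 0.076 at lola, and reached 0.27 at psq and 0.36 at ken. By count there were 3 at chinmo, 4 each at ttk, ab and ken, 5 each at lola, bab2, Trl and mod(mdg4), 8 at bab1 and 17 at psq. Of the 60 summits, 42 lay in introns of every transcript of the member that spanned them, 5 in 5′ UTRs, 9 upstream of the gene and 4 downstream. The intronic share was 70.0%, beside 40.0% when every IDR summit was paired in the same way with every protein-coding gene and 76.6% for genes of 10 kb or more. The share within 500 bp of the gene's own transcription start sites was 16.7%, beside 33.7% for all protein-coding genes and 18.8% for those of 10 kb or more. At least 1 IDR summit in the gene or within 2 kb was found for 42.9% of all protein-coding genes. A count of 4 or more, a limit chosen after the counts were seen, was found for 9 of the 10 members, for 4.07% of all protein-coding genes and for 24.9% of the 1977 that span 10 kb or more. Those 9 members include ken, which spans 7.17 kb and so lies outside that class.

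**Figure D1:**
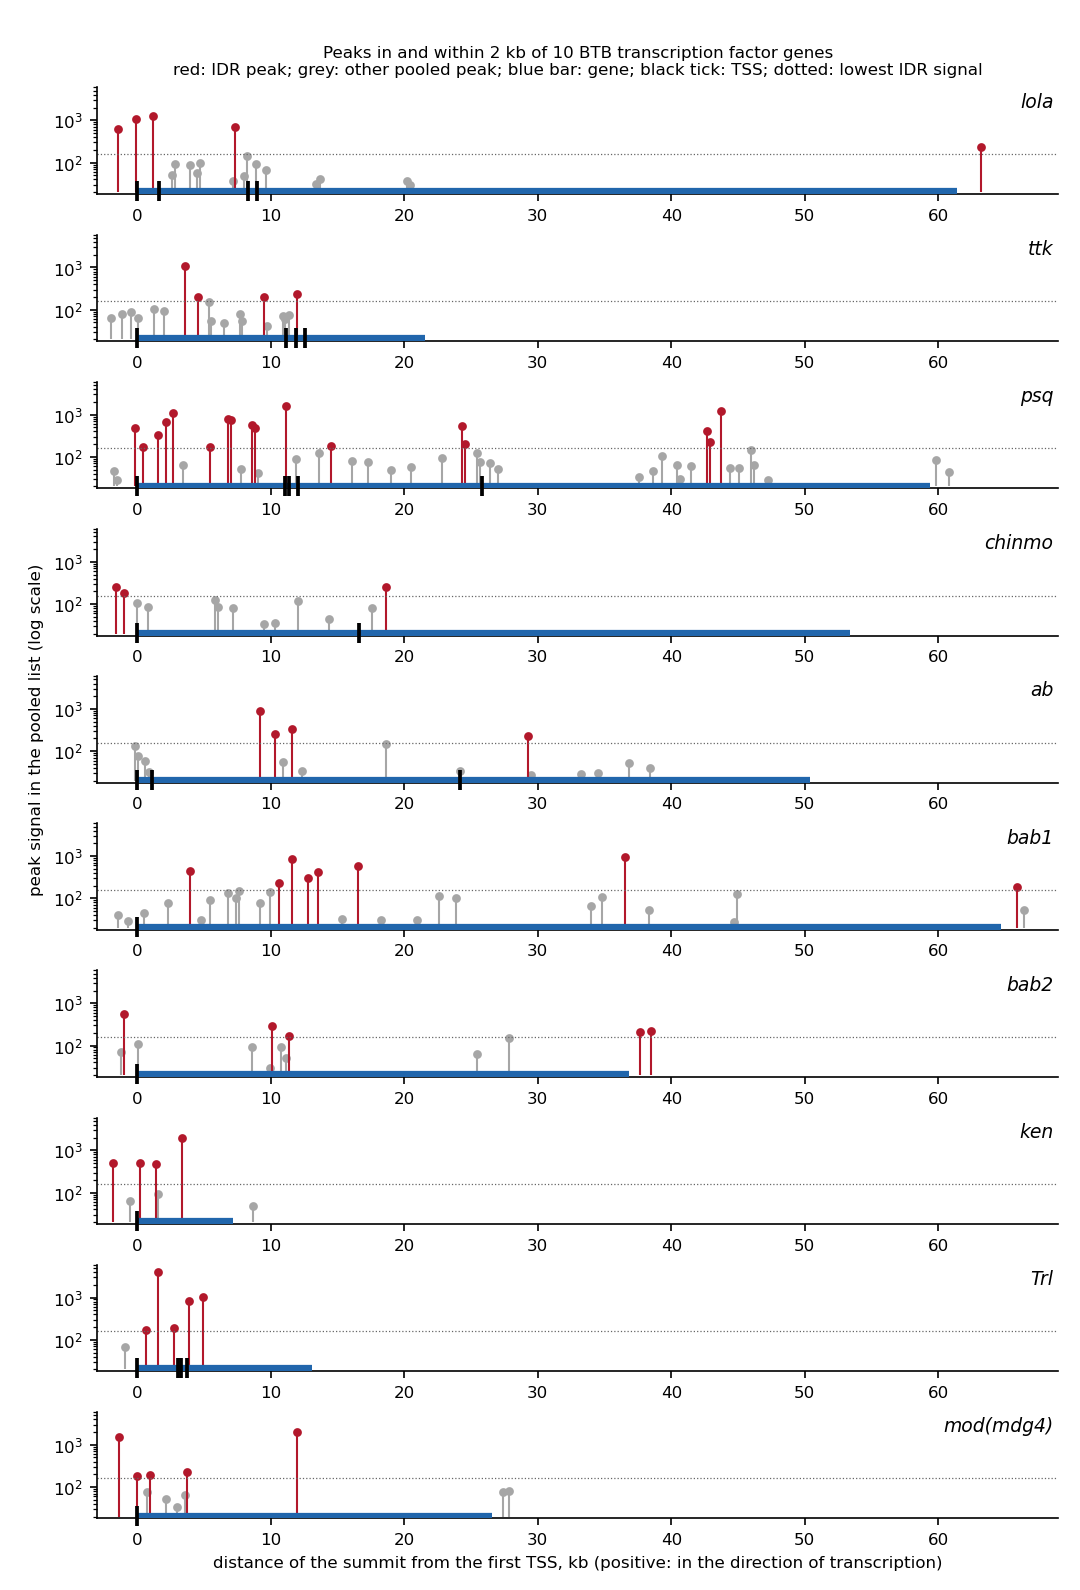
Pooled peaks in and within 2 kb of each gene: the horizontal axis is the distance of the summit from the first transcription start site in kb, and the vertical axis is the peak's signal in the pooled list on a log scale. Red stems are the 60 IDR peaks and grey stems the 121 other pooled peaks; the Trl peak of signal 3927 is the highest, and psq has the most red stems.

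Longer genes had more IDR summits across the genome, so the long members have to be read against long genes. Protein-coding genes of 30 kb or more had a median of 2 IDR summits with an interquartile range of 0 to 6 (n = 663). Those of 10 to 30 kb had a median of 1 with a range of 0 to 3 (n = 1314), and those under 10 kb a median of 0 with a range of 0 to 1 (n = 11968). Among the 6 members over 30 kb, psq and bab1 lay above the upper quartile of their class, and lola, chinmo, ab and bab2 lay inside the quartiles. Trl, mod(mdg4) and ttk, of 13.1, 26.6 and 21.5 kb, lay above the upper quartile of genes of 10 to 30 kb. The shortest member, ken, of 7.17 kb, had 4 summits, above the upper quartile of short genes.

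**Figure D2:**
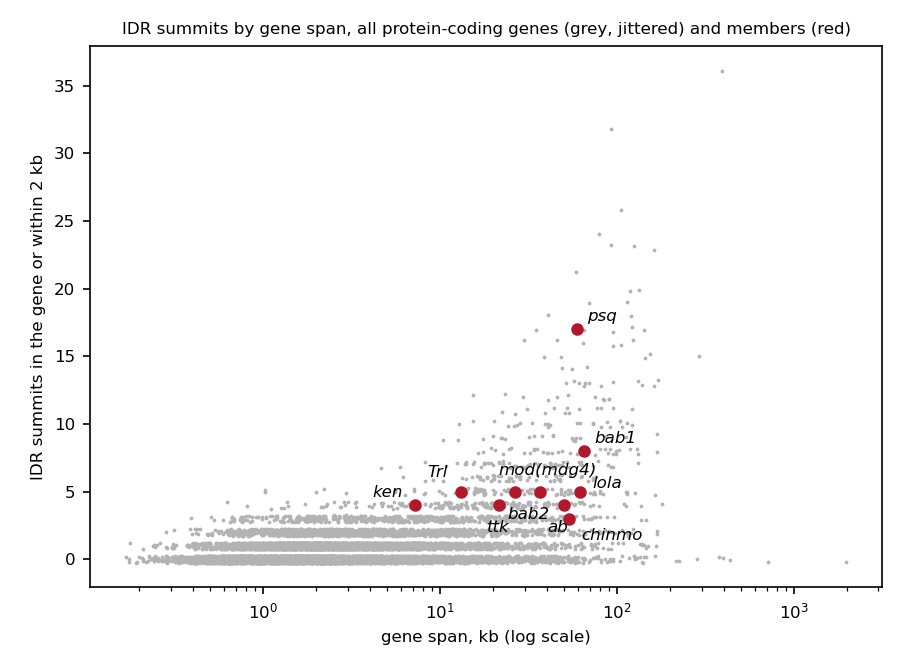
Number of IDR summits in the gene or within 2 kb, by gene span in kb on a log scale, for all 13945 protein-coding genes (grey, with a small vertical jitter) and the 10 members (red). The member psq, with 17 summits, ranked 15 among all protein-coding genes, and chinmo, with 3, ranked 568.

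The sequences at strong sites of several members differed from each other in base composition. For the members shown, the base of the strongest IDR summit that lay clear of annotated exons is given with the 50 bases on each side, on the plus strand, from the RefSeq copy of dm6. Capitals mark the strings GAGAG and AGGAC on either strand. GAGAG is the core of the sites that the GAGA factor, the product of Trl, and the product of psq are known to bind, and AGGAC is a core known for the product of ttk. The share of A and T ran from 40.6% in the bab2 window to 84.2% in the bab1 window. Over all IDR peaks its interquartile range was 62.4 to 74.3%. Windows of lola, ken and psq are not printed, and the strongest peaks of lola and ken had 70.3% and 68.3%. For mod(mdg4) the window is that of the peak of signal 1514, not of its strongest, of signal 1966.
Trl, chr3L:14759462-14759562, 67.3% A and T: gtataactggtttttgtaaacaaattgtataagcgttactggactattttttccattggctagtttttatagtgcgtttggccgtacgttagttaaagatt
mod(mdg4), chr3R:21378708-21378808, 82.2% A and T: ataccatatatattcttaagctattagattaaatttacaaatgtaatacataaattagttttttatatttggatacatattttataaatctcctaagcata
ttk, chr3R:31717378-31717478, 66.3% A and T: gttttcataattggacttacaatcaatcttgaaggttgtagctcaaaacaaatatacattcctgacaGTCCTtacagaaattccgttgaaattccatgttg
ab, chr2L:11219801-11219901, 74.3% A and T: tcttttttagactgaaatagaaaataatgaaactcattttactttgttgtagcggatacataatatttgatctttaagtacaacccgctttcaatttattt
bab1, chr3L:1064521-1064621, 84.2% A and T: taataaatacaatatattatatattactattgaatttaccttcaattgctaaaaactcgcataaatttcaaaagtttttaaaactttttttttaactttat
bab2, chr3L:1178203-1178303, 40.6% A and T: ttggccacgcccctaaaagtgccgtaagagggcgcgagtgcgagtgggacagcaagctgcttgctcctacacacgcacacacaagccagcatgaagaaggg
chinmo, chr2L:1669809-1669909, 54.5% A and T: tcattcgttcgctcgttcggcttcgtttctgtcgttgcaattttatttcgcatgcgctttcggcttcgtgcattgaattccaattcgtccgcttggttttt

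GAGAG was in none of these 7 windows, but the strongest psq peak, not printed here, held 3 copies. The ttk window held 1 copy of AGGAC on the minus strand. Over all 60 member summits, 5 such windows held GAGAG (8.33%, 95% exact Clopper-Pearson interval 2.76 to 18.4), beside 9.74% of all 8483 IDR summits. Among those off exons were a summit upstream of chinmo and one in an intron of mod(mdg4), shown here because they carry the string.
chinmo, chr2L:1649620-1649720, signal 252.8: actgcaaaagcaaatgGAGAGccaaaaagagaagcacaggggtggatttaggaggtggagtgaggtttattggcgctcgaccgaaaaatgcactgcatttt
mod(mdg4), chr3R:21376388-21376488, signal 190.8: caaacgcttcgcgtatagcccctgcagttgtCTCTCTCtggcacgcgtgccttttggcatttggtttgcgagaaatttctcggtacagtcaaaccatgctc

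AGGAC was found in 7 of the 60 windows (11.7%, 4.82 to 22.6), beside 4.89% of all IDR summits, with 3 at ttk and 1 each at bab1, bab2, Trl and mod(mdg4). Both intervals held the level of the whole list, for AGGAC only narrowly (4.82 beside 4.89). They cover counting error only and treat summits as independent. Since 3 of the 7 AGGAC windows were at ttk alone, no conclusion is drawn from them. Leaving out replicate 1, by taking the 8483 strongest replicate 3 peaks in place of the IDR list, gave a GAGAG share of 3.57%. The share over all of those replicate 3 peaks was not counted. Of the other strings searched on both strands, TATCGATA and CACACACA were each in 2 windows (3.33%), beside 0.967% and 1.53% of all IDR summits. GGTCACACT and CAGGTAG were in 0 windows, which allows a share of up to 5.96% each by the same interval, beside 0.413% and 0.295%.

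The 10 genes have 26 annotated transcription start sites (TSSs). An IDR summit lay within 500 bp of 11 of them, or 42.3%, against 22.7% of the 19253 TSSs of all protein-coding genes. By gene, 6 of the 10 members had one (lola, ttk, psq, ken, Trl and mod(mdg4)), against 24.6% of all protein-coding genes. Of the 9 members that span 10 kb or more, 5 had one, against 36.8% of such genes. The first TSS was marked in 4 members, against 21.6% of first TSSs in the genome, and 7 of the 16 later TSSs were, against 25.3%. The 4 members without an IDR summit at a TSS were chinmo, ab, bab1 and bab2.

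In the longer lists the other start sites filled in. The pooled list had a summit within 500 bp of 22 of the 26 TSSs, against 47.0% of all TSSs, replicate 1 of 22, against 48.4%, and replicate 3 of 19, against 45.8%. By gene, 9 members had a pooled summit at a TSS (47.0% of all protein-coding genes), 9 a replicate 1 summit (48.2%) and 8 a replicate 3 summit (46.6%). The member with none in any list was bab1, whose nearest pooled summit lay 511 bp downstream of its only TSS with a signal of 44.56. The nearest pooled summit lay within 70 bp of the last 2 TSSs of lola (-36 and -70 bp), the first TSSs of ab and chinmo (19 and 16 bp) and that of bab2 (67 bp). It lay farther off at others, such as -154 and -155 bp at the last 2 TSSs of psq, -240 bp at the second of ab, -566 bp at the last of ttk and 1005 bp at the second of chinmo.

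**Figure D3:**
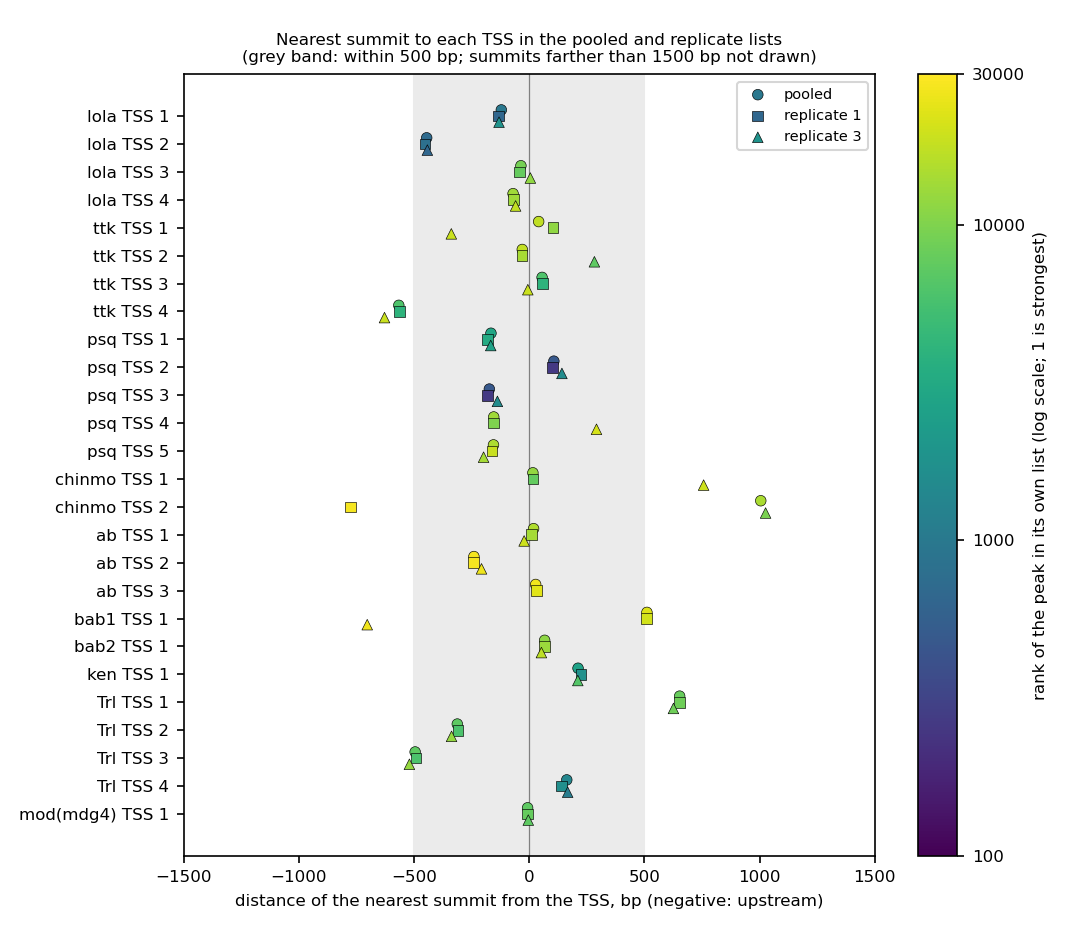
Distance in bp of the nearest summit of the pooled list (circles), replicate 1 (squares) and replicate 3 (triangles) from each of the 26 TSSs, numbered along the direction of transcription, with the peak's rank in its own list as colour on a log scale. Most TSSs have a summit within the grey band of 500 bp, but many are weak (green to yellow): the pooled ranks run from 11364 to 27305 at ab, bab1, bab2 and chinmo, and reach 17886 at ttk, 14944 at psq and 13172 at lola.

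The GAGA factor gene held the strongest peak of the family. Trl (FBgn0013263) occupies 14747929 to 14761049 of 3L, minus strand, with 10 transcripts and 4 TSSs, and its product opens chromatin at promoters and Polycomb response elements. The strongest peak (14759244 to 14759749) had a signal of 3927, at rank 43 of the IDR list. It had a signal of 2514 at rank 37 in replicate 1 and of 1429 at rank 54 in replicate 3, with summits 5 bp apart or less, so both replicates placed it near the top. Its summit lay 1537 bp downstream of the first TSS, in the second intron of the only transcript that starts there.

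Of the other 4 Trl peaks, 3 lay around the later start sites. The fourth TSS had a summit at 163 bp with a signal of 838.2 (rank 1676 in replicate 1 and 1086 in replicate 3). A peak of signal 1022 lay 1233 bp downstream of the same TSS, at ranks 1309 and 791. The second TSS, from which 7 of the 10 transcripts start, had only a weak IDR peak, of signal 186.9 at -312 bp, with rank 5973 in replicate 1 and 12289 in replicate 3. That summit lay at -495 bp from the third TSS and at -312 bp from a TSS of CG42507. The gene CG42507 lies on the same strand and shares the position of the second TSS of Trl. It also holds the summits of signal 838.2 and 1022, so these may be counted with either gene. The remaining peak, of signal 170.1, lay 653 bp inside the gene from the first TSS, outside the 500 bp window.

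The gene mod(mdg4) (FBgn0002781), for a component of the gypsy insulator complex, had strong peaks on both sides of a weak one at its start. It occupies 21350846 to 21377401 of 3R, minus strand, and all 22 of its transcripts begin at 1 TSS, joining shared first exons to alternative last exons, some of them made from separate precursors by trans-splicing. The summit nearest to the TSS lay at -7 bp, with a signal of 186.7 and ranks 7802 and 7229 in replicates 1 and 3. The strongest peak (21365206 to 21365656) had a signal of 1966 at rank 282, with ranks 349 and 204 in the replicates. It lay 11973 bp downstream of the TSS in the fourth intron, where the alternative ends are encoded.

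That peak stood among start sites annotated for the precursors of the alternative ends. The annotation lists 23 such genes named pre-mod(mdg4), 9 on the plus and 14 on the minus strand, and 13 of them had an IDR summit within 500 bp of a TSS. Of these, 10 shared the strongest peak, with the summit at 60 bp from the TSS of pre-mod(mdg4)-E, -138 bp from those of pre-mod(mdg4)-AB and C, and -181 bp from those of 7 genes on the plus strand, such as pre-mod(mdg4)-U. Since many of them share 1 TSS, these are few independent positions. The other 3, among them pre-mod(mdg4)-N, had the summit of a weaker peak at -82 bp, with a signal of 228.7. A further strong peak, of signal 1514 (ranks 449 and 689), lay 1357 bp upstream of mod(mdg4) and at -219 bp from a TSS of tin, a homeobox gene of heart development, so it may be counted with either gene. The remaining peak had a signal of 190.8, 963 bp inside the gene.

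The gene psq had the most peaks of the family, from its upstream flank to an intron 43744 bp from its first TSS. It occupies 10557888 to 10617280 of 2R, plus strand (FBgn0263102), with 15 transcripts and 5 TSSs, and its product binds GAGAG and acts with Polycomb group proteins. Its 17 IDR summits fell in 13 regions once overlapping peaks were merged. The strongest (10568378 to 10569292) had a signal of 1576 and lay at 107 bp from the second TSS and -173 bp from the third. It ranked 260 in replicate 1, with a signal of 1289, and 1573 in replicate 3, with a signal of 307.8, so it stood higher in replicate 1. At the first TSS, from which 6 transcripts start, a summit at -166 bp had a signal of 475.4 (ranks 3162 and 2688).

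Some of the strongest psq peaks lay far from its start sites. A peak of signal 1222 lay 17946 bp downstream of the fifth TSS, in an intron of all 15 transcripts, with ranks 707 and 920 in the replicates. A peak of signal 1089 lay in the first intron, 2712 bp downstream of the first TSS, with ranks 1074 and 839. In the third intron, 1 region carried a pair of summits of signal 769.0 and 731.3. Replicate 1 gave a single peak there (rank 974), while replicate 3 gave one peak for each summit, at ranks 2451 and 6661. A peak of signal 170.0, 447 bp past the first TSS, was overlapped in replicate 1 at rank 5260 and by no replicate 3 peak.

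The neighbour of psq is lola, which is transcribed in the opposite direction from a start 14.6 kb away. The gene lola (FBgn0283521), at 10481894 to 10543291 of 2R, minus strand, encodes many isoforms with shared BTB exons and different zinc fingers, and is known for axon guidance. Its 24 transcripts start at 4 TSSs, and the first 2 of them had an IDR summit within 500 bp. At the first TSS, with 2 transcripts, the summit lay at -121 bp with a signal of 1078, and its ranks were 661 in replicate 1 and 1890 in replicate 3. At the second, with 8 transcripts, it lay at -445 bp with a signal of 1273 and ranks of 812 and 651.

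The third TSS, which starts 11 of the lola transcripts, had no IDR summit within 500 bp. Its nearest IDR summit lay at -920 bp with a signal of 712.7 (ranks 1969 and 1438), while a pooled summit at -36 bp had a signal of 146.8, below the IDR limit. At the fourth TSS the pooled summit at -70 bp had a signal of 92.16. A peak 1421 bp upstream of the gene had a signal of 615.2. The last, of signal 228.4, lay 1769 bp beyond the far end of lola and at -14 and -38 bp from the TSSs of trsn and Pef, and no replicate 3 peak overlapped it. In the 14.6 kb between lola and psq the IDR list had 4 summits and the pooled list 17.

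The gene ttk (FBgn0003870), at 31713867 to 31735392 of 3R, plus strand, encodes repressors of neuronal fate that act in glia and in the cone cells of the eye. Its strongest peak (31717275 to 31717654) was intronic, 3561 bp downstream of the first TSS, with a signal of 1100. Replicate 1 ranked it 961 with a signal of 666.3, and replicate 3 ranked it 944 with a signal of 433.6, so the replicates placed it alike. Of the 4 TSSs only the third had an IDR summit within 500 bp, at 56 bp with a signal of 230.5. The overlapping peak ranked 4022 in replicate 1 and 18940 in replicate 3, a far weaker place there. The other ttk peaks had signals of 203.8 and 196.3 in the first intron.

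The genes ab and chinmo had no IDR summit at a start site. The gene ab (FBgn0264442), at 11210678 to 11261080 of 2L, plus strand, is needed for the shape of sensory neuron dendrites and for muscle innervation. Its strongest peak (11219679 to 11220045) had a signal of 904.8 and lay 8054 bp downstream of the second TSS, with ranks of 1371 and 1183 in replicates 1 and 3. Intronic peaks followed with signals of 335.2, 251.2 and 232.3, the last 5094 bp downstream of the third TSS. All 4 were overlapped in both replicates. At the first TSS pooled summits at -191 and 19 bp had signals of 134.0 and 76.89, and at the other starts the nearest pooled summits had signals of 32.05 and 33.97.

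The gene chinmo (FBgn0086758), at 1651258 to 1704682 of 2L, plus strand, maintains early identities of neurons and other cells before metamorphosis. Its strongest peak, of signal 256.3, was the weakest such peak among the 10 members. That peak lay in an intron 2012 bp downstream of the second TSS, with ranks of 4639 and 7525 in replicates 1 and 3. The others lay upstream, at -1588 bp (signal 252.8, ranks 5419 and 5427) and at -998 bp (signal 182.2, ranks 13522 and 4793). At the first TSS a pooled summit at 16 bp had a signal of 105.5. Replicate 1 ranked its peak there 7632, while the nearest replicate 3 summit lay 757 bp away at rank 19509.

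The paired genes bab1 and bab2 pattern the legs, the ovary and the pigment of the abdomen, and the long first intron of bab1 is known to hold abdominal enhancers. The gene bab1 (FBgn0004870) occupies 1036369 to 1101089 of 3L, minus strand, and 7 of its 8 IDR summits lay in the first intron. The strongest (1064403 to 1064732), in an AT-rich stretch, had a signal of 961.1 at 36518 bp from the TSS, with ranks of 1075 and 1365 in the replicates. Next was one of signal 869.4 at 11619 bp, with ranks 1468 and 1217. Peaks of signal 576.5, 452.8 and 423.3 lay at 16551, 3957 and 13555 bp, and all 7 intronic peaks were overlapped in both replicates. The eighth lay downstream of bab1 with a signal of 182.1, at -13 bp from a TSS of CG9205 and -297 bp from one of trio.

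At bab2 (FBgn0025525), at 1140429 to 1177276 of 3L, minus strand, the strongest peak lay upstream. It had a signal of 551.7 at -977 bp from the only TSS, with ranks of 2010 and 3706 in replicates 1 and 3. A pooled summit at 67 bp from the TSS had a signal of 111.5. Peaks in the second intron had signals of 284.4 and 168.3, and peaks beyond the far end had signals of 216.0 and 208.0, in the stretch between bab2 and the start of bab1. The 39.3 kb between bab2 and bab1 held 3 IDR summits in all, the strongest with a signal of 976.0, and 22 pooled summits.

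The gene ken (FBgn0011236), at 23870273 to 23877442 of 2R, plus strand, encodes a repressor of some JAK/STAT pathway targets and is needed for genital development. The strongest of its 4 peaks (23873406 to 23873872) lay in the first intron, 3355 bp downstream of its TSS, with a signal of 1967 at rank 281. Its ranks were 339 in replicate 1 and 229 in replicate 3. The summit at the TSS, at 212 bp, had a signal of 507.2, with ranks of 1758 and 6461. A second intronic peak had a signal of 468.8 and ranks of 3981 and 2070. The remaining peak, of signal 508.1, lay 1829 bp upstream of ken and at 159 bp from a TSS of Mtpbeta, a mitochondrial fatty acid oxidation gene.

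Over the family, 7 of the 60 IDR summits lay within 500 bp of a TSS of another gene. The matching share over all IDR summits and genes was not counted, so whether this is high or low is not known. Of the 60, 10 lay within 500 bp of a TSS of the member itself, 16 between 500 bp and 2 kb away and 34 beyond 2 kb. The 10 at start sites had signals from 170.0 to 1576 with a median of 491.3, and the other 50 from 168.1 to 3927 with a median of 414.1. The strongest peak lay more than 500 bp from the TSSs in 8 of the 10 members, all except lola and psq. No such count was made over other genes. Most peaks lay that far off in any case: only 16.7% of member peaks were within 500 bp, beside 18.8% in genes of 10 kb or more. The median signal of the 60 was 438.1, with an interquartile range of 221.4 to 786.3, beside a median of 329.4 and a range of 218.4 to 608.5 over all IDR peaks, and 33 of them were above the median rank of the list and 10 in its top 1000. The median share of A and T in these windows was 66.3%, beside 69.3% over all IDR peaks.

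Both replicates marked nearly all of these sites. Of the 60 peaks, 60 were overlapped by a replicate 1 peak and 58 by a replicate 3 peak, and 96.9% of all IDR peaks were overlapped in both replicates. The IDR list was made from these replicates, so a high share was built in. Ranks in the replicates had a Spearman correlation of 0.78 across the 58 member peaks and 0.79 across 8217 IDR peaks, as a description of peaks that share the same libraries. The members' peaks ranked higher in replicate 1 in 28 of 58 cases. Among all IDR peaks this held for 45.8% of those within 500 bp of a TSS and 49.4% of the others, a similar level. By number of ranks, the peaks that differed most between replicates were those at the third ttk TSS and the upstream chinmo peak at -998 bp, each better placed in a different replicate.

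**Figure D4:**
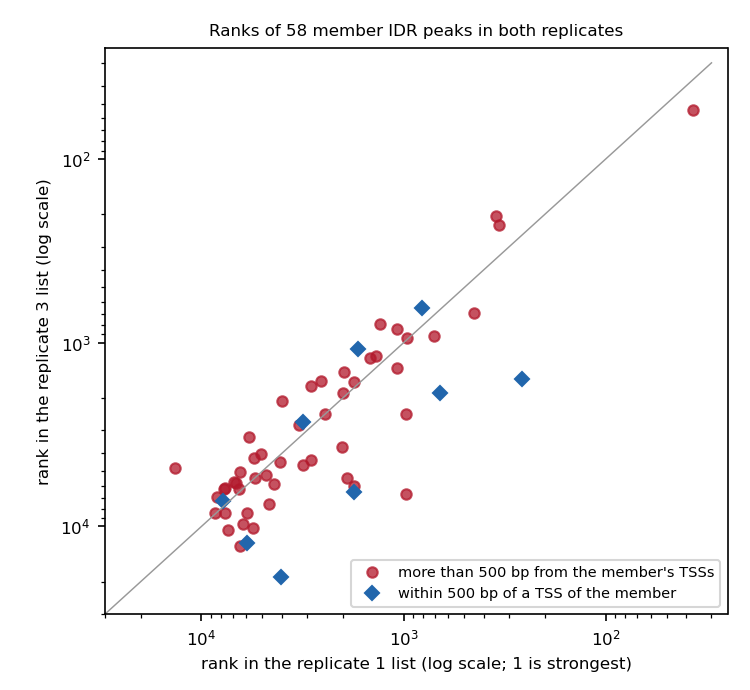
Rank of each of the 58 member IDR peaks that both replicates overlapped, in the replicate 1 list (horizontal) and the replicate 3 list (vertical), both on log scales with the strongest at the upper right. Blue diamonds are summits within 500 bp of a TSS of the member and red circles the others; the Trl peak at ranks 37 and 54 stands at the top, and the lowest diamond is the ttk peak at ranks 4022 and 18940.

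The limit of the IDR list cut through a continuous range of signals at these genes. Just inside it were peaks of psq (signals 168.1 and 170.0) and bab2 (168.3), and just outside were intronic pooled peaks of ttk (156.1), ab (149.7) and bab1 (147.8). In all, 121 pooled peaks of the members fell outside the IDR list. Of these, 82 were overlapped in both replicates, 31 in replicate 1 alone, 6 in replicate 3 alone and 2 in neither. An overlap of 1 bp can come from the replicate peak of a stronger neighbour. The ab peak of signal 27.76 was matched at -194 and -174 bp by the replicate peaks that also matched the IDR peak of signal 232.3. A stricter rule was not applied to these peaks, and the level over all pooled peaks outside the IDR list was not counted.

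Of 16 further BTB genes, 9 had an IDR summit at a TSS, beside the 24.6% of all protein-coding genes given above. The strongest TSS peaks were at Cp190, an insulator protein gene (signal 2600), mamo, a zinc finger gene of the germline and of neurons (1363 in signal), and lolal, whose product partners GAGA factor (signal 480.6). Named after their values were seen, the ecdysone-induced gene br had IDR summits at 3 of 9 TSSs but at low signal, its best IDR rank being 6830, and fru, of the sex determination pathway, had 8 IDR summits, with 1 of 7 TSSs marked. No pooled summit lay at a TSS of rib, lov, CG8924, CG3726, CG6765 or CG32121. The replicate lists did mark some of these starts. Both lists marked 2 of 2 TSSs of CG3726, replicate 3 marked 1 of 2 of rib, and replicate 1 marked 1 of 1 of CG6765. CG3726 also had 7 IDR summits more than 500 bp from its TSSs, the strongest with a signal of 3583 at rank 55.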

How the data were processed

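Chromatin of 2 biological replicates was immunoprecipitated and sequenced. Per the labels and the text deposited with the files, the peaks are on dm6, and the pooled and IDR lists were made from both replicates, with 1 further undescribed input to the replicate and pooled lists. For the aligner, the peak caller and the IDR threshold the entry is: not given in the sources used here. The signal of each peak is the authors' deposited value, of unstated scale, and the summit is the deposited offset from the peak's start. The lists of 30000 peaks have the same length, so their depth of calling is not comparable with read depth.

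For shares of places, each IDR summit was paired with every protein-coding gene that held it or lay within 2 kb. From these lists, each summit was given to a gene of Ensembl release 115 (BDGP6.54) when inside it or within 2 kb, and to a TSS when within 500 bp. Distinct transcript starts counted as separate TSSs, and only genes on the 6 main arms were used. A replicate matched a peak when its own peak overlapped by at least 1 bp. Strings were searched on both strands of the summit base and the 50 bases on each side. Python 3.11.15, pandas 2.3.3, numpy 2.4.6, SciPy 1.17.1 and matplotlib 3.10.9 were used, and the assignment was tested on simulated data.

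The members, the 16 further BTB genes and the strings were chosen with earlier results of these data known. No significance test was made, since there was 1 group. All IDR peaks of members with up to 6 are described, and the 5 of highest signal at psq and bab1, with genes whose TSS lay within 500 bp of them. Of the further genes, the 3 with the strongest TSS peak and those with no pooled summit at a TSS are named. Alternatives were other windows, margins, match rules and motif widths, the stronger part of the IDR list, and leaving out each replicate.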

Additional observations from a re-analysis of the deposited data

How the results depend on the processing

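Of 32 alternatives tried, 28 left a count within 1.5 times its reported value, or the GAGAG share within its 95% interval, which is wide, and 4 moved it. With a window of 1000 bp, 18 of the 26 member TSSs had an IDR summit. By gene, 8 members did, with chinmo and bab2 added, beside 28.6% of all protein-coding genes. A wider window can only add TSSs. No share of all TSSs was counted for any alternative, so the TSS counts given here have no genome level beside them. With the stronger part of the IDR list alone, which has fewer peaks by construction, there were 33 member summits, 7 marked TSSs, 4 members (beside 13.6% of all genes) and 4 further BTB genes. Leaving out 1 replicate gave 6 members without replicate 1 (beside 24.8%) and 7 without replicate 3 (beside 24.3%), where chinmo was added, with 9 to 13 TSSs and 56 to 64 summits. Leaving out a replicate meant taking the 8483 strongest peaks of the other, and the GAGAG share was then 3.57 to 10.9%. A window of 100 bases on each side of the summit gave 15.0%, and a longer window can only raise the share. The share over all summits was not counted in these settings, so these values cannot be set beside the 9.74% of all IDR summits. With an overlap of at least 50%, 46 of the 60 peaks were matched in both replicates. No paired analysis was possible because there was 1 group. Depth is unknown, so whether more start sites would pass in deeper data was not tested.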
